A study of Saccharomyces cerevisiae with 14 samples.

Results

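The strain by stage interaction asks of each gene whether its change between the start and the end of a wine fermentation was the same in the wine yeast M2 and in its deletion mutant M2 nsf1∆. It was taken as the change from 24 h to 85% in M2 nsf1∆ minus the same change in M2, on log2 intensities, and it is equal to the strain difference at 85% minus the strain difference at 24 h. A positive value means that the gene ended relatively higher in the mutant than its start would give, and a negative value that it ended relatively lower. All 5498 probe sets of the array that were paired with 1 Saccharomyces cerevisiae gene entered, covering 5449 genes, and 10 of the 14 arrays of the series carry the contrast: 2 of each strain at 24 h and 3 of each strain at 85%.

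M2 is an industrial wine strain, and M2 nsf1∆ is the same diploid strain with both copies of NSF1 replaced by a kanamycin resistance cassette. Both fermented filtered Riesling must at 18 °C without shaking and had no other treatment. The first sample was set by time after inoculation, 24 h, and the last by the progress of each fermentation, when 85% of the glucose was gone, so a difference at 24 h in how far the strains had come and a difference between the strains at the same stage cannot be told apart. Each array held RNA of 1 sample that the labels call a biological replicate. The number of independent transformants behind M2 nsf1∆ is not given in the sources used here.

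NSF1, called USV1 in the reference annotation (YPL230W), encodes a zinc-finger transcription factor that is known for its role in growth on non-fermentable carbon and in the late phases of fermentation. During a wine fermentation yeast first divides in a must rich in sugar and nitrogen, then stops dividing while it goes on fermenting, and ends in a medium with little sugar and much ethanol. Genes of the cell cycle, of respiration, of sulfur uptake and of membrane transporters that expel toxic compounds are all known to follow these phases.

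The probe sets were read as RMA log2 intensities, and those of Schizosaccharomyces pombe, which match no gene of this yeast, gave the background, with a median of 3.06 and a 95th percentile of 3.53. Over the 14 arrays the median intensity of the tested probe sets ran from 8.87 to 8.95. In M2, NSF1 was at 9.10 and 8.92 at 24 h and at 13.12, 12.90 and 13.19 at 85%. In M2 nsf1∆ it was at 2.95 and 3.58 at 24 h and at 3.63, 3.95 and 5.90 at 85%. Every mutant array lay below every M2 array. Of these mutant values all but 2.95 lay above the 95th percentile of the background. Replicate 3 of the mutant at 85% stood farther above it than the other mutant arrays. The interaction of NSF1 was -2.83 (SE 0.71, limma adjusted p = 0.0634) and did not pass the threshold. Without replicate 3 of M2 nsf1∆ at 85% it was -3.53 (limma adjusted p = 0.00419). Both genes beside it on the chromosome did not pass, FAS2, a subunit of fatty acid synthase, with an interaction of -0.65 and YPL229W with -0.58 (limma adjusted p = 0.0845 and 0.237).

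The mutant arrays were less alike within a group than those of M2 at 24 h and at 85%. At 85%, beside the NSF1 value of replicate 3, replicate 1 of M2 nsf1∆ lay at 92.4% of the way from the M2 mean at 24 h to that at 85%, where the other 5 arrays at 85% lay between 97.97% and 101.25%. Leaving out replicate 1 gave 118 probe sets in place of 110, and leaving out replicate 3 gave 85. At 24 h the difference had more effect. Along the line from the M2 mean at 24 h (0%) to the M2 mean at 20% fermented (100%), replicate 2 of M2 nsf1∆ at 24 h lay at 28.0% of the way and replicate 1 at 9.25%. Its correlation with the M2 arrays at 20% over all S. cerevisiae probe sets was 0.953 where that of replicate 1 was 0.938. Without this array 11 probe sets passed in place of 110, all 11 of them among the 110. None of the 110 changed sign, and the median ratio of the new interaction to the old one was 0.918, with a range from 0.675 to 1.24. Without replicate 1 of the same group 194 passed, of which 94 were among the 110. The 11 were PDR16, MIX17, IZH1, RCF2, YLL056C, TOS4, CDC9, KCC4, MKC7, MCH4 and YIL067C. Every other gene described here as passing the test of the interaction lost the call without replicate 2.

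For most probe sets the changes measured in both strains lay close to each other, and a small set passed the test of the interaction. Not passing does not show that the course was the same. Between 24 h and 85%, 4026 probe sets (73.2%) changed in M2 by limma at an adjusted p of 0.05, of which 2088 rose (38.0%) and 1938 fell (35.2%). In M2 nsf1∆ 4014 (73.0%) changed, of which 2035 rose (37.0%) and 1979 fell (36.0%). The interaction lay within 0.5 of zero on the log2 scale for 83.1% of all probe sets, and its median was -0.03. By the test of the interaction itself 110 probe sets passed, 2.00% of those tested, with 50 positive (0.909%) and 60 negative (1.09%). They stood for 110 genes. At an unadjusted p of 0.05 there were 951 (17.3%). The positive interactions lay between 0.74 and 2.17, the negative ones between -0.68 and -2.00, and 69 of the 110 were at least 1 in size. For each of the 110, all 6 differences between an 85% array and a 24 h array in one strain lay to one side of all 6 in the other, which held for 19.2% of all probe sets (8.51% positive and 10.7% negative). These differences come from the same arrays that chose the 110, so the count describes the calls and adds no separate evidence.

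**Figure D1:**
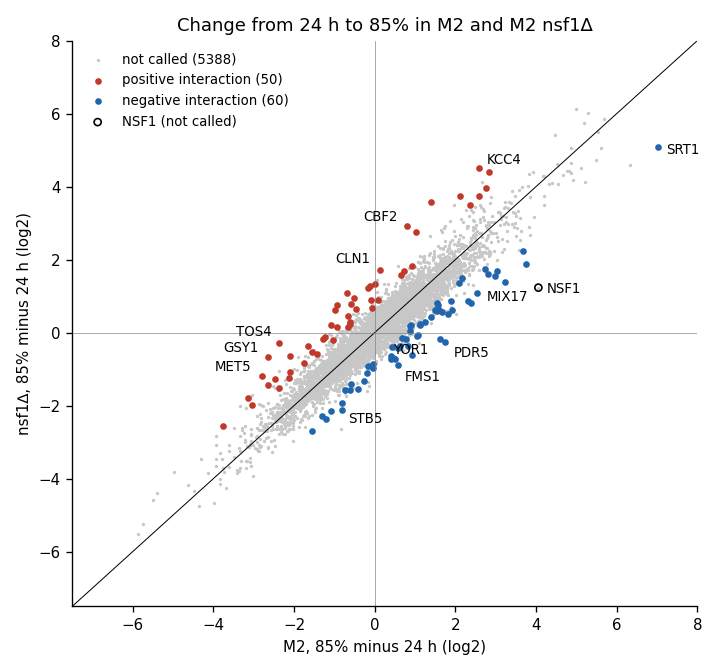
The log2 change from 24 h to 85% in M2 (x axis) and in M2 nsf1∆ (y axis) for 5498 probe sets, with the diagonal where the interaction is 0. The 50 genes with a positive interaction (red) lie above the diagonal, the 60 with a negative one (blue) below it, and NSF1 (open circle) lies below it without passing the test.

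The genes that passed took different courses. In 59 of the 110 both strains changed in the same direction by the test, and the change was the smaller one in the mutant for 37 and the larger one for 22. Of the others, 23 changed in M2 and did not pass in the mutant, 14 changed in the mutant and did not pass in M2, and 14 changed in both strains in opposite directions. Over all probe sets 3505 of 5498 changed in the same direction in both strains and 21 in opposite directions. In M2 500 passed without passing in the mutant, and 488 the reverse. The group of 14 held RMD6, MCD1 and HSL1, which fell in M2 and rose in the mutant, and FMS1, QCR2 and CCC2, which rose in M2 and fell in the mutant.

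Of the 50 genes with a positive interaction 39 were higher in M2 nsf1∆ by the test at 85%, where 4.95% of all probe sets were, and 2 were lower at 24 h, where 0.0546% of all probe sets were. Of the 60 with a negative interaction 45 were lower in the mutant at 85% (3.89% of all probe sets) and 4 were higher at 24 h (0.0728%). In each direction 1 gene differed at both stages. In 10 genes with a positive and 12 with a negative interaction the strains differed at neither stage by the test, so that only the comparison of the changes passed. Over all probe sets the strains differed in 486 at 85% (8.84%) and in 7 at 24 h (0.127%). The interaction chooses genes by the strain difference at 85% less that at 24 h. The counts among the chosen genes and the medians of both differences are therefore given only as a description. Genes with a negative interaction had a median strain difference, M2 nsf1∆ minus M2, of 0.44 at 24 h and -0.59 at 85% on the log2 scale. Those with a positive one had -0.38 and 0.75.

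The arrays at 20% fermented were not part of the contrast and show on which side the strains lay in between. Of the 60 genes with a negative interaction 50 were lower in M2 nsf1∆ at 20%, with a median difference of -0.32, where 42.5% of all probe sets were lower. Of the 50 with a positive interaction 44 were higher in the mutant at 20%, with a median difference of 0.37, where 57.5% of all probe sets were higher. In 5 of the 110 the strains differed at 20% by the test, and 19 of all probe sets did (0.346%), with 10 higher (0.182%) and 9 lower (0.164%) in the mutant. These 5 were HMX1, LSB6 and YER053C-A, lower in the mutant, and WSC4 and ALG14, higher in it. Genes are not independent of each other, and the same 4 arrays stand behind each count.

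**Figure D2:**
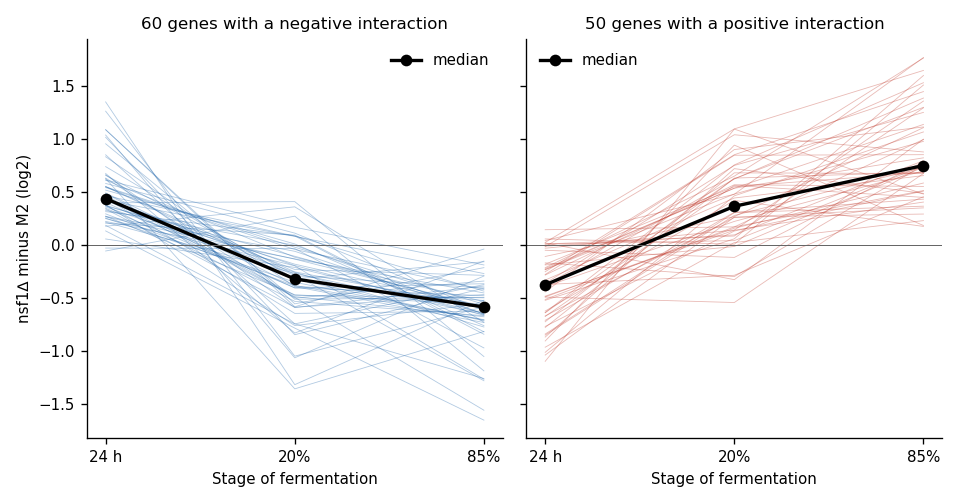
The strain difference, M2 nsf1∆ minus M2 on the log2 scale, at 24 h, 20% and 85% for each gene that passed (thin lines), with the median (black). The median of the 60 genes with a negative interaction goes from 0.44 through -0.32 to -0.59, and that of the 50 with a positive one from -0.38 through 0.37 to 0.75.

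Among the genes with a negative interaction were transporters and lipid proteins of the pleiotropic drug resistance network, whose members are known to be switched on by the regulators Pdr1p and Pdr3p and to pump out or keep out toxic compounds. Of 19 genes of the network, a list put together after the values were seen, 8 had a negative and none a positive interaction, against 1.09% and 0.909% of all probe sets. The median of the list was -0.47. Without replicate 2 of M2 nsf1∆ at 24 h it was -0.40, and only PDR16 passed.

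PDR5, the main multidrug efflux pump, was at 9.79 and 10.05 at 24 h and at 11.65, 11.34 and 12.01 at 85% in M2. In M2 nsf1∆ it was at 10.18 and 10.54 and then at 9.49, 10.36 and 10.47. All mutant arrays at 85% were below all M2 arrays at 85%, and at 24 h the mutant arrays were the higher ones. PDR5 rose by 1.74 in M2 and had a change of -0.26 in the mutant that did not pass, and its interaction was -2.00 (SE 0.37, limma adjusted p = 0.019). Without replicate 2 at 24 h the interaction was -1.82 (limma adjusted p = 0.117).

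YOR1, a pump of organic anions, went the same way. It was at 9.41 and 9.69 and then at 11.03, 10.92 and 11.52 in M2, and at 9.39 and 9.97 and then at 9.28, 9.46 and 9.77 in the mutant. The strains overlapped at 24 h and were apart at 85%, and the interaction was -1.79 (SE 0.29, limma adjusted p = 0.0119). It was -1.50 without replicate 2 (limma adjusted p = 0.0642). At 20% the M2 arrays were at 10.58 and 10.52 and the mutant arrays at 9.83 and 9.70, so the strains were apart by then. SNQ2, another pump, rose in both strains, by 2.30 in M2 and by 0.85 in the mutant, with an interaction of -1.45 (SE 0.32, limma adjusted p = 0.0357), which was -1.24 without replicate 2 (limma adjusted p = 0.19). PDR10, a pump close to PDR5 in sequence, was at 8.84, 8.87 and 8.81 at 85% in M2 and at 8.23, 8.26 and 8.09 in the mutant, and its interaction was -0.92 (limma adjusted p = 0.0431).

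PDR16, a phosphatidylinositol transfer protein, had one of the steadiest differences of the whole table. It was at 10.83 and 10.82 and then at 13.28, 13.13 and 13.20 in M2, and at 11.66 on both 24 h arrays and then at 12.67, 12.38 and 12.36 in the mutant. The mutant began higher and ended lower on every array. Its interaction was -1.57 (SE 0.19, limma adjusted p = 0.00424), and it passed in each of the 10 fits that left out 1 array. ICT1, an acyltransferase of phospholipid synthesis, had an interaction of -1.03 (limma adjusted p = 0.0357).

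Of the regulators of the network PDR3 passed and PDR1 did not, with interactions of -0.93 and -0.47 (limma adjusted p = 0.0333 and 0.31). PDR3 was at 6.92 and 6.87 at 24 h in M2 and at 6.76, 6.80 and 6.97 at 85%, and it fell in the mutant from 7.13 and 7.42 to 6.34, 6.07 and 6.46. STB5, a regulator of drug and oxidant resistance genes, had its strain difference at the other end of the fermentation. It was at 8.32 on both M2 arrays at 24 h and at 9.30 and 9.51 on the mutant arrays, a difference of 1.09 that passed by itself (limma adjusted p = 0.0392). At 85% it was at 7.60, 7.32 and 7.58 in M2 and at 7.25, 7.25 and 7.36 in the mutant. The interaction of STB5 was -1.30 (SE 0.23, limma adjusted p = 0.0168). The other 11 genes of the list did not pass, and all but PDR17 had a negative value.

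**Figure D3:**
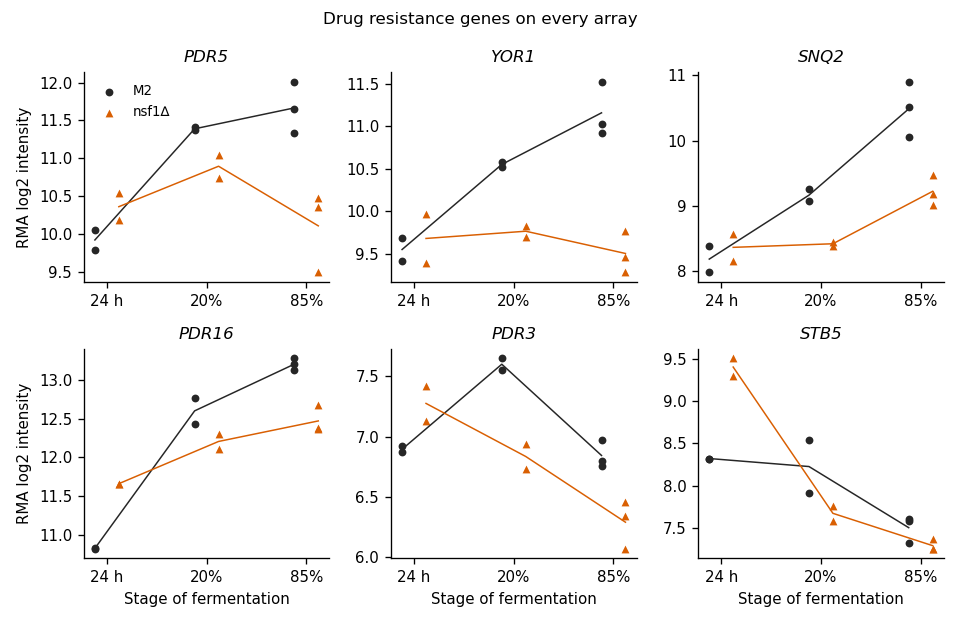
RMA log2 intensity of 6 drug resistance genes on each array of M2 (circles) and M2 nsf1∆ (triangles) at 24 h, 20% and 85%, with lines through the group means. In every panel but that of STB5, where the strains overlap, each mutant array at 85% lies below each M2 array. In PDR5, PDR16, PDR3 and STB5 both mutant arrays at 24 h lie above both M2 arrays.

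Mitochondrial genes made a further group on the negative side. Of 23 subunits and electron carriers of the respiratory chain, which passes electrons from food to oxygen, 5 had a negative and none a positive interaction, against 1.09% and 0.909% of all probe sets. All 23 values were below zero, with a median of -0.55 where that of all genes was -0.03, and the values ranged from -1.20 to -0.03. Without replicate 2 of M2 nsf1∆ at 24 h the median was -0.42 and none of the 5 passed.

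CYC1, cytochrome c, was at 11.95 and 12.07 and then at 12.67, 12.89 and 12.95 in M2. In the mutant it was at 12.33 and 12.67 and then at 12.48, 11.81 and 12.11. It rose by 0.83 in M2 and had a change of -0.37 in the mutant that did not pass, and the interaction was -1.20 (SE 0.25, limma adjusted p = 0.0301). The 2 mutant arrays at 24 h were above both M2 arrays, and the 3 mutant arrays at 85% were below all 3 M2 arrays.

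RIP1 and QCR2, subunits of complex III, had interactions of -1.02 and -0.99 (limma adjusted p = 0.0352 and 0.0301), and both rose in M2 and fell in the mutant by the test. On each of them replicate 2 of the mutant at 24 h was the higher array, with RIP1 at 11.89 and 12.34 and QCR2 at 11.19 and 11.64. Without it their interactions were -0.79 and -0.76 (limma adjusted p = 0.19 and 0.146). COX6 and COX4, subunits of cytochrome c oxidase, had -0.83 and -0.82. NDI1, the internal NADH dehydrogenase, had a value of -1.15 that did not pass (limma adjusted p = 0.127), and its mutant arrays at 24 h were far apart, at 10.31 and 11.22. The 20 genes of the ATP synthase held none that passed, with a median of -0.25 that was -0.04 without replicate 2.

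MIX17, a small protein of the mitochondrial intermembrane space, had the smallest p with PDR16. It was at 10.64 and 10.61 and then at 13.22, 13.11 and 13.15 in M2, and at 11.55 and 11.60 and then at 12.70, 12.60 and 12.70 in the mutant. The strains were apart at both ends and in opposite directions. The difference passed at 24 h (0.96, limma adjusted p = 0.0135) and at 85% (-0.49, limma adjusted p = 0.0155), and the interaction of -1.45 (SE 0.17, limma adjusted p = 0.00424) became -1.42 without replicate 2 (limma adjusted p = 0.0326). RCF2, which is known to help cytochrome c oxidase assemble into supercomplexes, had -1.09, and it also passed without replicate 2, at -1.27.

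MIC60, which shapes the inner membrane, fell in the mutant by the test, from 9.60 and 10.07 to 8.45, 8.56 and 8.56. In M2 it was at 9.45 and 9.48 and then at 9.09, 9.25 and 9.23, a fall that did not pass. Its interaction was -1.04 (limma adjusted p = 0.019). FZO1, needed for the fusion of mitochondria, PCP1, an inner membrane protease, and UPS2, a lipid transfer protein of the intermembrane space, had -1.13, -1.11 and -0.97. Of 24 genes of the inner membrane and intermembrane space, put together after the values were seen, 6 passed and all 6 were negative, against 1.09% of all probe sets, and the median was -0.44. Without replicate 2 only MIX17 and RCF2 passed. COX15, an enzyme of heme A synthesis outside that list, had -0.96, and JID1, a mitochondrial J-domain protein, -1.43. JID1 was at 9.34 and 9.62 in the mutant at 24 h and at 8.36 and 8.57 in M2, and that difference passed (1.02, limma adjusted p = 0.0392).

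Other genes with a large negative interaction lay outside these groups. HMX1 and CCC2 were the 2 of 26 iron genes that passed, and IZH1 was the 1 of 10 zinc genes. Each was negative, as were 1.09% of all probe sets by the test. The medians of the iron and zinc lists were -0.14 and -0.02, where that of all genes was -0.03. SRT1, a prenyltransferase of dolichol synthesis, made the largest rise of these other genes with a large negative interaction. It went from 3.77 and 3.86 to 10.94, 10.70 and 10.84 in M2 and from 4.48 and 4.46 to 8.91, 9.75 and 9.97 in the mutant. The strains were apart at both stages, and the interaction was -1.94 (SE 0.32, limma adjusted p = 0.0119). At 24 h SRT1 lay close to the background, where changes are compressed. CAX4, a dolichol pyrophosphate phosphatase, had -1.31 (limma adjusted p = 0.0352).

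BSC4 and HPA2, the second a histone acetyltransferase, had interactions of -1.87 and -1.85 (limma adjusted p = 0.0301 and 0.0318). In both the mutant arrays at 24 h were unlike each other, with BSC4 at 4.08 and 5.30 and HPA2 at 9.02 and 10.03, and replicate 2 was the higher one. Without it the interactions were -1.26 and -1.34, and neither passed. HMX1, a heme oxygenase, crossed over early. Its M2 arrays were at 9.60 and 9.89 at 24 h, at 12.15 and 12.10 at 20% and at 12.87, 12.66 and 12.77 at 85%. Its mutant arrays were at 10.59 and 10.97, at 11.12 and 11.00 and at 12.87, 12.37 and 12.17. At 20% the difference was -1.07 (limma adjusted p = 0.0473), and the interaction of 85% with 24 h was -1.33 (SE 0.26, limma adjusted p = 0.0259), or -1.14 without replicate 2 (limma adjusted p = 0.141).

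FMS1, a polyamine oxidase, rose in M2 and fell in the mutant. It was at 10.05 and 9.89 and then at 10.55, 10.40 and 10.67 in M2, and at 10.40 and 10.34 and then at 9.18, 9.60 and 9.68 in the mutant. The mutant was the lower strain at 85% on every array, and the interaction was -1.45 (SE 0.26, limma adjusted p = 0.0168). IZH1, a membrane protein of zinc homeostasis, rose by 1.06 in M2 and had a change of -0.09 in the mutant that did not pass. Its interaction was -1.15 (SE 0.17, limma adjusted p = 0.00828), it passed without replicate 2 at -1.25, and it passed in each of the 10 fits that left out 1 array. ROX1, the repressor of genes of oxygen-poor growth, had -1.28, and CCC2, a copper transporter, -1.23.

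On the positive side lay a number of genes of the cell cycle. In the lists of cyclins and of DNA replication, 3 of 26 and 2 of 32 genes had a positive and none a negative interaction, with medians of 0.25 and 0.43, against 0.909% and 1.09% of all probe sets. Without replicate 2 of M2 nsf1∆ at 24 h none of these 5 passed. A list of 38 genes known to be expressed in the G1 and S phases, put together after the values were seen, held 10 that passed, all positive, and 34 with a value above zero, where 47.1% of all genes had one. Its median was 0.68. Without replicate 2 it was 0.61, and only TOS4 and CDC9 passed.

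CLN1, a G1 cyclin that drives cells into division, was at 6.29 and 6.67 at 24 h and at 6.81, 6.20 and 6.81 at 85% in M2. In the mutant it was at 5.52 and 5.24 and then at 6.81, 7.22 and 7.24. Both mutant arrays at 24 h were below both M2 arrays, while at 85% the strains touched at 6.81. CLN1 rose by 1.71 in the mutant and had a change of 0.13 in M2 that did not pass, and its interaction was 1.58 (SE 0.31, limma adjusted p = 0.0259), or 1.44 without replicate 2 (limma adjusted p = 0.141). CLN2, its partner, fell in both strains, from 7.75 and 7.97 to 4.84, 4.70 and 4.58 in M2 and from 7.10 and 6.87 to 5.2, 5.16 and 5.22 in the mutant. The fall was the smaller one in the mutant, and the interaction was 1.36 (limma adjusted p = 0.0168). CLB1, a cyclin of mitosis, had 1.47 (limma adjusted p = 0.0119).

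TOS4, a forkhead-domain protein of the G1 to S transition, was at 7.22 and 7.33 and then at 4.98, 4.57 and 5.15 in M2. In the mutant it was at 6.35 and 6.16 and then at 5.86, 6.30 and 5.75. The mutant was lower on every array at 24 h and higher on every array at 85%. TOS4 fell by 2.37 in M2 and had a change of -0.29 in the mutant that did not pass, with an interaction of 2.08 (SE 0.28, limma adjusted p = 0.0069). Without replicate 2 at 24 h it was 1.99 (limma adjusted p = 0.0378), and it passed in each of the 10 fits that left out 1 array.

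CDC45, which starts the replication fork, was at 7.42 and 7.59 and then at 7.43, 7.40 and 7.33 in M2, and at 6.82 and 6.74 and then at 7.75, 8.22 and 8.22 in the mutant. POL30, the sliding clamp of DNA polymerase, was at 10.93 and 11.11 and then at 11.22, 10.85 and 11.01 in M2, and at 10.35 and 9.61 and then at 11.42, 11.36 and 11.18 in the mutant. Both genes rose in the mutant by the test and had a change in M2 that did not pass, with interactions of 1.40 and 1.33 (limma adjusted p = 0.019 and 0.0299). For POL30 the strains were apart at 24 h and overlapped at 85%, and replicate 2 of the mutant at 24 h was the lowest array at that stage. Without it POL30 had 0.96 (limma adjusted p = 0.123).

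CDC9, the DNA ligase, fell in M2 from 8.29 and 8.37 to 7.18, 7.14 and 6.98 and in the mutant was at 8.0 and 7.87 and then at 7.83, 7.85 and 7.72. Its interaction was 1.09 (SE 0.15, limma adjusted p = 0.0069), and 1.03 without replicate 2 (limma adjusted p = 0.0441). MCD1, a subunit of the cohesin ring that holds sister chromatids together, fell in M2 and rose in the mutant. It was at 6.92 and 6.87 and then at 6.09, 5.76 and 5.89 in M2, and at 6.15 and 5.92 and then at 6.49, 6.84 and 6.61 in the mutant, with an interaction of 1.59 (SE 0.24, limma adjusted p = 0.00828). PDS5, which is bound to cohesin, YOX1, a repressor of genes between M phase and G1, and CDC21, the thymidylate synthase, had 1.28, 1.08 and 0.80.

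**Figure D4:**
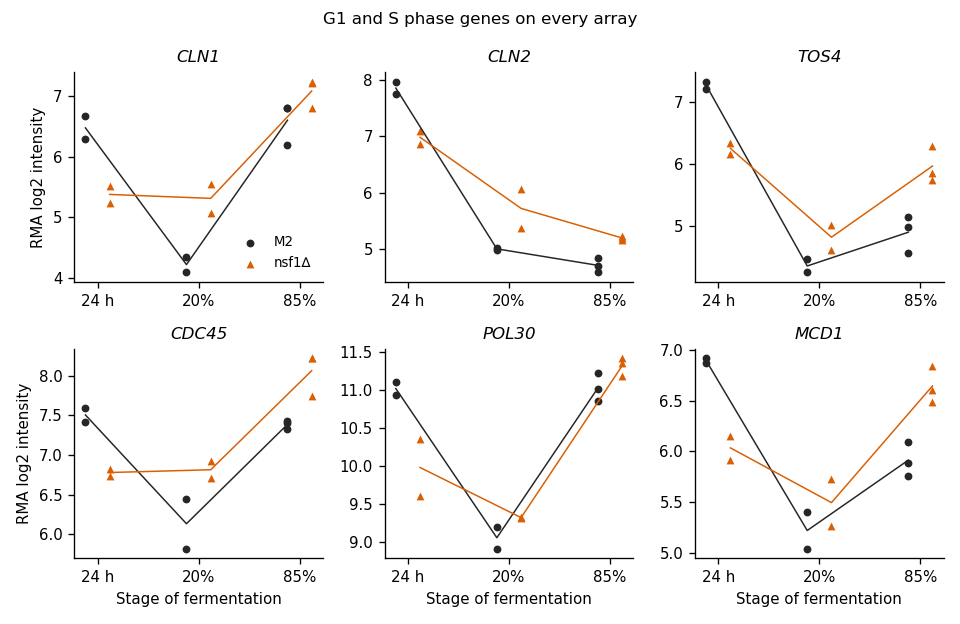
RMA log2 intensity of 6 genes of the G1 and S phases on each array of M2 (circles) and M2 nsf1∆ (triangles) at 24 h, 20% and 85%, with lines through the group means. In all 6 panels both mutant arrays at 24 h lie below both M2 arrays, and at 85% the mutant mean lies above that of M2.

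Genes of the bud neck and of chromosome segregation followed. KCC4, a kinase of the bud neck, was at 5.65 and 5.82 and then at 8.59, 7.76 and 8.60 in M2, and at 5.07 and 5.11 and then at 9.54, 9.76 and 9.54 in the mutant. The mutant began lower and ended higher on every array, and the interaction was 1.94 (SE 0.29, limma adjusted p = 0.00828). The related kinases HSL1 and GIN4 had 1.12 and 1.02. HOF1, which acts in cytokinesis, was at 7.38 and 7.47 and then at 6.33, 6.54 and 6.61 in M2, and at 7.22 and 7.13 and then at 7.27, 8.27 and 8.28 in the mutant, with an interaction of 1.70 (SE 0.35, limma adjusted p = 0.0301). A list of 20 bud neck and cytokinesis genes, put together after the values were seen, held these 4 and no other that passed, against 0.909% of all probe sets, and its median was 0.32. Without replicate 2 only KCC4 passed.

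CBF2, a protein of the inner kinetochore, was at 7.05 and 7.43 and then at 8.11, 7.53 and 8.49 in M2. In the mutant it was at 6.94 and 6.5 and then at 9.93, 9.32 and 9.68. The arrays at 85% were apart, and the interaction was 2.12 (SE 0.35, limma adjusted p = 0.0119), or 1.91 without replicate 2 (limma adjusted p = 0.0732). MCM16, also of the kinetochore, was at 6.63 and 6.71 at 24 h in M2 and at 6.83 and 6.59 in the mutant, and the strain difference of 1.77 arose at 85%, where M2 was at 7.92, 7.20 and 7.95 and the mutant at 9.23, 9.48 and 9.66. Of 63 genes of the kinetochore, cohesin and spindle, also put together after the values were seen, 5 were positive and 1 was negative, against 0.909% and 1.09% of all probe sets, and none of the 6 passed without replicate 2. The negative one was SPC25, a subunit of the Ndc80 complex of the kinetochore, at -0.81 (limma adjusted p = 0.0314).

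Sulfur genes were of interest because the study asked what NSF1 does in sulfur metabolism. Sulfate enters through the permeases Sul1p and Sul2p, is reduced to sulfide by the MET enzymes and is built into homocysteine by Met17p. Of 11 genes of sulfate assimilation, MET5 and MET14 had a positive interaction and none had a negative one, against 0.909% and 1.09% of all probe sets. All but MET8 had a value above zero. The median was 0.86, and 0.47 without replicate 2 of M2 nsf1∆ at 24 h, when none of the 11 passed.

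MET5, a subunit of sulfite reductase, was at 11.48 and 11.56 at 24 h and at 8.85, 8.20 and 9.07 at 85% in M2. In the mutant it was at 11.41 and 10.89 and then at 10.11, 9.79 and 9.98. MET5 fell by 2.81 in M2 and fell by 1.19 in the mutant, and every mutant array at 85% was above every M2 array. The interaction was 1.62 (SE 0.31, limma adjusted p = 0.0257), and 1.35 without replicate 2 (limma adjusted p = 0.141).

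MET14, the kinase of adenylyl sulfate, was at 12.02 and 12.32 and then at 9.72, 9.41 and 9.96 in M2, and at 12.20 and 11.67 and then at 11.00, 10.46 and 10.57 in the mutant. Its interaction of 1.21 (SE 0.29, limma adjusted p = 0.04997) lay at the very edge of the threshold, and it was 0.95 without replicate 2 (limma adjusted p = 0.231). SUL2, the sulfate permease, lay just outside it, at 1.39 (SE 0.34, limma adjusted p = 0.0564). It was at 9.15 and 9.14 and then at 9.38, 8.64 and 9.57 in M2, and at 9.21 and 8.58 and then at 10.54, 10.19 and 10.27 in the mutant. SUL2 rose by 1.44 in the mutant, and its change of 0.05 in M2 did not pass. Without replicate 2 its interaction was 1.07 (limma adjusted p = 0.241).

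The other genes of the pathway did not pass. MET3, the ATP sulfurylase, MET16, the reductase of phosphoadenylyl sulfate, MET17, the homocysteine synthase, and SUL1 had values of 0.86, 0.87, 0.88 and 0.78. On MET3, MET5, MET14, MET16 and SUL2 replicate 2 of the mutant at 24 h was the lower array of the pair, and for MET16 the pair was at 10.74 and 9.69. Without that array MET16 had 0.35, MET3 0.47 and SUL1 1.17. MET10, the other subunit of sulfite reductase, and MET22, a phosphatase of the pathway, had 0.50 and 0.54. MET1 and MET8, of siroheme synthesis, had 0.04 and -0.35.

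None of 7 regulators of sulfur genes passed. MET4, the activator of the pathway, had -0.15 and rose in both strains, by 2.19 in M2 and by 2.04 in the mutant. MET32, one of its DNA-binding partners, had 0.87 (limma adjusted p = 0.0813), with the mutant at 9.89, 9.78 and 9.86 at 85% and M2 at 9.13, 8.98 and 9.02. The other partner MET31 had 0.00. The cofactors MET28 and CBF1 had 0.60 and -0.72, MET30, which targets Met4p, 0.28 and the sulfite pump SSU1 -0.16. Of 16 genes of the methionine cycle and methionine uptake none passed. Of 13 genes of cysteine and glutathione GTT2, a glutathione transferase, passed at -0.80 (limma adjusted p = 0.0352), where 1.09% of all probe sets had a negative interaction.

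**Figure D5:**
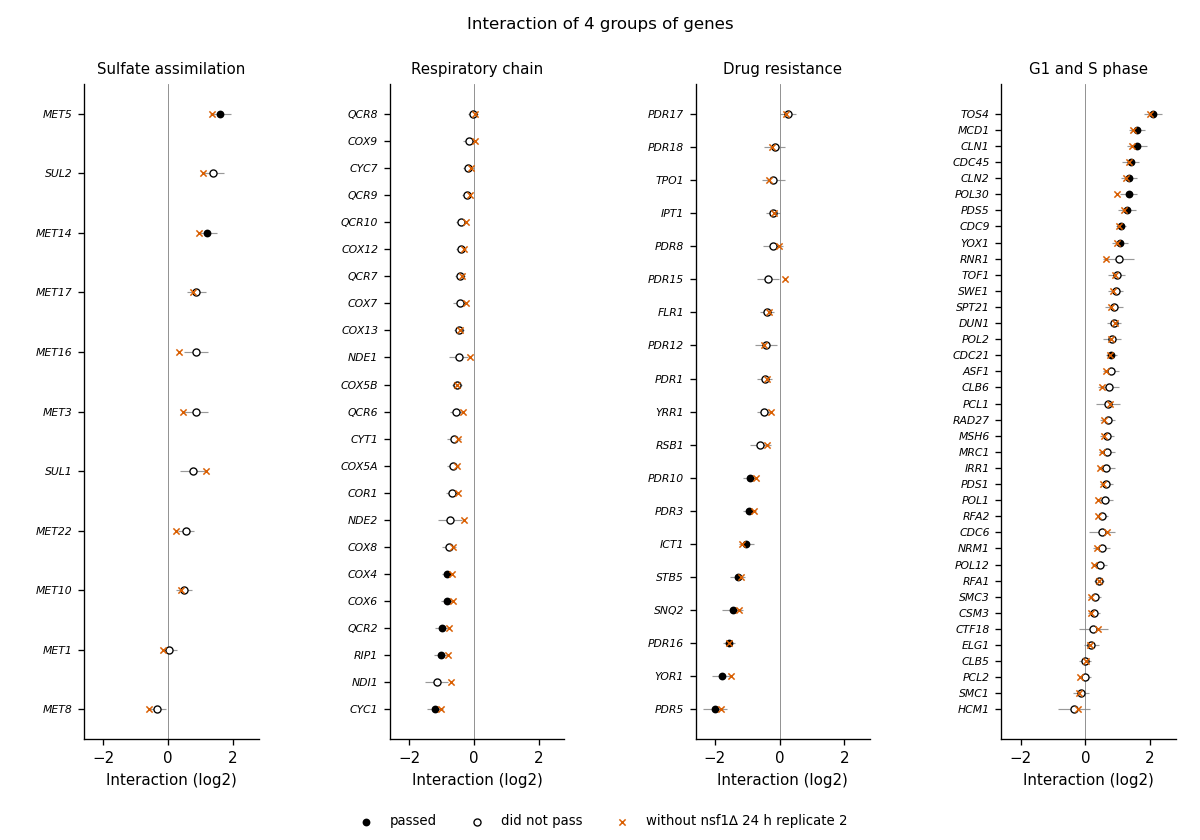
The interaction (log2) with its standard error for each gene of sulfate assimilation, the respiratory chain, drug resistance and the G1 and S phases, with filled circles for genes that passed and crosses for the value without replicate 2 of M2 nsf1∆ at 24 h. The medians of the 4 groups are 0.86, -0.55, -0.47 and 0.68, and the crosses lie mostly nearer to 0. The lists of drug resistance and of the G1 and S phases were put together after the values were seen.

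A few genes with a large positive interaction stood outside these groups. GSY1, a glycogen synthase, fell in both strains, from 11.79 and 11.76 to 9.03, 8.88 and 9.44 in M2 and from 11.38 and 11.74 to 10.65, 10.86 and 11.15 in the mutant. The fall was the smaller one in the mutant, and the interaction was 1.98 (SE 0.35, limma adjusted p = 0.0166). It was the only 1 of 12 glycogen genes that passed, where 0.909% of all probe sets had a positive interaction by the test. TDA6, whose function is unknown, had the most positive interaction of the genes that passed, 2.17 (SE 0.51, limma adjusted p = 0.0466), but its arrays were widely spread, at 8.65 and 7.92 in M2 and at 8.22 and 7.08 in the mutant at 24 h. It was 1.60 without replicate 2 (limma adjusted p = 0.224).

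RPI1, a putative regulator of the Ras pathway, rose by 2.84 in M2 and by 4.40 in the mutant, with an interaction of 1.56 (limma adjusted p = 0.0148). RMD6 fell by 0.59 in M2 and rose in the mutant, with 1.37 (limma adjusted p = 0.00828). MKC7, a protease of the cell surface, fell by 2.64 in M2 and fell by 1.43 in the mutant. It had an interaction of 1.21 (SE 0.16, limma adjusted p = 0.0069) and passed in each of the 10 fits that left out 1 array, as did TOS4, KCC4, CDC9, PDR16, MIX17, IZH1 and YLL056C.

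Most of the 57 lists of pathways and complexes held no gene that passed. There were 38 with none, 14 with 1, 3 with 2 and 2 with 3 or more, the respiratory chain and the cyclins. Over all probe sets 2.00% passed. The medians of the 57 lists ranged from -0.55 for the respiratory chain to 0.86 for sulfate assimilation. None of 14 hexose transporters, 16 genes of glycolysis, 16 of the TCA cycle, 28 heat shock proteins and chaperones or 129 cytosolic ribosomal proteins passed, with medians of -0.06, -0.28, -0.20, -0.02 and -0.10. Of 22 genes of haploid cells and mating RME1, a repressor of meiosis, had a negative interaction (-1.20), as had 1.09% of all probe sets. Of 33 sporulation genes none passed. The mean level of the haploid list ranged over arrays from 5.0 to 5.02 in M2 and from 5.12 to 5.31 in the mutant at 24 h, and from 6.63 to 6.74 and from 6.75 to 6.88 at 85%. That of the sporulation list ranged from 4.98 to 5.0 and from 4.99 to 5.24 at 24 h, and from 6.59 to 6.68 and from 6.78 to 6.87 at 85%. Their part in the interaction was not tested.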

How the data were processed

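The authors extracted total RNA from fermenting cells, hybridised it to 14 Affymetrix Yeast Genome 2.0 arrays and deposited log2 intensities made with RMA, whose version is not stated. Since RMA removes background, brings all arrays to one distribution and sums up probes, a shift of all RNA between groups is lost. The table held 10928 probe sets, and the 5498 that have 1 S. cerevisiae gene in the probe annotation were tested. Left out were 1746 of S. pombe, 213 controls, 3470 without a gene and 1 with several. Of the tested ones 128 may also bind other transcripts, and none of these passed.

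Groups followed the labelled strain and stage. With limma 3.58.1 in R 4.3.3, 6 group means were fitted over all 14 arrays (residual degrees of freedom 8, prior 5.14), and each contrast was adjusted by Benjamini-Hochberg over 5498 probe sets with a threshold of 0.05. Precision is limited by the number of arrays, and p-values measure the spread between these samples. The fit was tested on simulated data with the spread of these arrays, drawn separately for each probe set. A deviation shared by a whole array was not simulated, so its effect on the recovery is not known. In the simulated data the fit recovered 6% of interactions of 0.5, 74% of those of 1, 94% of those of 1.5 and 100% of those of 2. A gene that did not pass may therefore still have an interaction, and not only a small one. In these arrays 69 of the 126 probe sets with a value of at least 1 in size passed.

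The genes named by rule are the 12 most positive and 12 most negative that passed without overlap and have a standard name. With them are NSF1 and up to 3 with the smallest p of each course. The respiratory chain, the cyclins and the sulfur lists gave up to 3 genes of each sign that passed. All genes of sulfate assimilation and its regulators are named as well. Other genes were chosen after their values were seen. The genes, lists and tests were chosen with earlier results of these data known, and 5 lists after the values of this contrast were seen. No set test was run. Alternatives were another block, array set, filter, normalization, variance model and threshold, and leaving out each array. Promoter motifs were not analysed here.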

Additional observations from a re-analysis of the deposited data

Results flagged for a closer look

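The stage change differed between the strains by the test of the difference itself in 110 probe sets, and the genes named by rule are listed here with the interaction on the log2 scale. Groups of 2 or 3 arrays are too small for a test of single outlying arrays. Of the cell cycle, CBF2 had 2.12, TOS4 2.08, KCC4 1.94, MCM16 1.73, HOF1 1.70, MCD1 1.59, CLN1 1.58, CLB1 1.47, CDC45 1.40, CLN2 1.36 and CDC9 1.09. Of sulfate assimilation, MET5 had 1.62 and MET14 1.21, and elsewhere TDA6 had 2.17, GSY1 1.98, RPI1 1.56, RMD6 1.37 and MKC7 1.21. Of drug resistance, PDR5 had -2.00, YOR1 -1.79, PDR16 -1.57 and SNQ2 -1.45. Of mitochondria, MIX17 had -1.45, JID1 -1.43, CYC1 -1.20, MIC60 -1.04, RIP1 -1.02 and QCR2 -0.99. Among the rest, SRT1 had -1.94, BSC4 -1.87, HPA2 -1.85, FMS1 -1.45, HMX1 -1.33, CAX4 -1.31, IZH1 -1.15 and GTT2 -0.80.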

How the results depend on the processing

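The sign of the interaction held for each of the 110 probe sets under every alternative that tested it, while their number depended on the arrays. Blocks, filters, the intensity trend and no moderation left the interaction itself unchanged or nearly so, and its sign could not turn there. Fits that left out an array still shared the other arrays. Leaving out 1 of the 10 arrays gave 11 to 194 probe sets, 6 to 77 of them positive and 5 to 117 negative. The lowest of these came without M2 nsf1∆ 24 h replicate 2 and the highest without replicate 1 of that group. Without M2 24 h replicate 1 and 2 they were 45 and 21, without M2 85% replicates 1, 2 and 3 they were 44, 61 and 63, and without M2 nsf1∆ 85% replicate 2 they were 52. Without both M2 nsf1∆ 24 h replicate 2 and 85% replicate 3, chosen after seeing the data, 10 passed (3 positive, 7 negative). The 10 arrays alone gave 54 (27 and 27), array weights 178 (76 and 102), no moderation 39 (15 and 24), a fold of at least 2 as well 69 (33 negative) and an unadjusted p of 0.05 951 (426 and 525). Without the dimmest 25% of probe sets 29 positive ones passed.

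The labels do not say whether the replicate numbers pair the arrays. Over 13 pairs of same-numbered arrays the correlation of deviations from the group means ranged from -0.161 to 0.574. The highest was between replicate 3 of M2 and of M2 nsf1∆ at 85%, and 3 of 6 arrays at 85% correlated best with their own number. At 24 h the deviations of the 2 arrays of a group mirror each other, so those pairs say little. With the replicate block 135 passed. Of the genes named by rule it gave NSF1 (-2.83, limma adjusted p = 0.038), SUL2 (1.39, 0.0444) and MET32 (0.87, 0.0398) a call and took that of MET14 (1.21, 0.0534), and it changed no other call among them. Crossing the numbers of M2 nsf1∆ at 24 h, also chosen afterwards, gave 156 (92 negative). At 24 h the strains differed in 2 probe sets with the block and in 1 to 85 when 1 array was left out. At 85% they differed in 188 to 498 when 1 array was left out, and the methods' t-test gave 849 at an unadjusted p of 0.05 and 0 after Benjamini-Hochberg.

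Of 36 genes named by rule that passed, none changed sign. Leaving out 1 array lost the call in 120 of 360 fits, and other settings in 82 of 455. Among genes that did not pass, MET1 became -0.04 with array weights and -0.12 without both doubted arrays, which made MET31 -0.06 and SSU1 0.06. Leaving out 1 array gave MET1 -0.16 to 0.24, MET31 -0.16 to 0.25 and SSU1 -0.33 to 0.01. Promoter motifs were not run. Values near background are compressed.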
